A study of Mus musculus with 36 samples.

Results

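The RNA of neurotrophins, their receptors and other activity-regulated secreted or surface proteins of neurons was measured in the hippocampus of the CK-p25 mouse. The group holds 7 genes, taken by name. Bdnf and Ntf3 encode the neurotrophins BDNF and NT-3, Ntrk2 and Ntrk3 encode their receptors TrkB and TrkC, and Nrn1, Vgf and Scg2 encode neuritin, the VGF propeptide and secretogranin II. All 7 were among the 37991 genes of the count table, matched by Ensembl identifier, and all 7 were among the 14457 genes that passed the filter on low counts and were tested.

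The study compared CKp25 mice, a double-transgenic model of neurodegeneration, with control littermates labelled CK, at 2 and at 6 weeks after p25 was induced. p25 is a truncated activator of the kinase Cdk5. In the CK-p25 line it is switched on in forebrain neurons by a tetracycline-regulated driver under the Camk2a promoter, so that excitatory neurons carry the transgene. The labels do not say which transgenes the CK littermates carry. The mice were 3-month-old females, the tissue was hippocampus, and RNA from each of the 4 groups (CK at 2 weeks, CKp25 at 2 weeks, CK at 6 weeks and CKp25 at 6 weeks) was sequenced as 3 libraries. Nothing in the labels ties a library to a single animal, so that p-values measure the spread between these libraries, which may be technical.

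BDNF is made as a precursor, sorted into dense core vesicles and released by neuronal activity. It binds TrkB, a receptor tyrosine kinase that signals through Ras and MAP kinase, PI3 kinase and phospholipase C gamma, while NT-3 prefers TrkC. In the adult hippocampus BDNF is made mainly by excitatory neurons and supports synaptic plasticity. TrkB is also made by astrocytes, largely as a truncated form without the kinase. Neuritin is an activity-induced protein anchored on the neuronal surface that promotes neurite growth, and VGF and secretogranin II are dense core vesicle cargo that is cut into peptides.

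Bdnf, Nrn1, Vgf and Scg2 are known targets of the calcium- and cAMP-regulated factor CREB, which binds the cAMP response element (CRE). Promoter sequences from RefSeq (build GRCm38.p6) were matched for 4 of the 7 genes: 7 start sites of Bdnf, 2 of Ntf3, 1 of Ntrk2 and 1 of Scg2. Among these 11 windows, the palindromic CRE TGACGTCA was found only upstream of Scg2, 68 bases before the start site, and the variant TCACGTCA (reverse complement TGACGTGA) only upstream of 1 Bdnf start site, 38 bases before it. In all 32851 windows of 250 bases, searched on both strands, the palindrome was present in 1.55% and the variant in 0.35%. The shorter TGACG, which both contain, was present in 17.8%. The E-box CACGTG (6.02% of windows) was found at 1 Ntf3 start site, and the AP-1 site TGAGTCA (4.46%) at none. The Bdnf window (chr2:109692186-109692435, plus strand) and the Scg2 window (chr1:79440027-79440276, minus strand) are shown because they carry the activity-response letters, given in capitals, and because these genes differed in what was measured below. Gene-level counts do not tell apart the start sites of a gene, so that none of the values below belongs to 1 promoter.
Bdnf: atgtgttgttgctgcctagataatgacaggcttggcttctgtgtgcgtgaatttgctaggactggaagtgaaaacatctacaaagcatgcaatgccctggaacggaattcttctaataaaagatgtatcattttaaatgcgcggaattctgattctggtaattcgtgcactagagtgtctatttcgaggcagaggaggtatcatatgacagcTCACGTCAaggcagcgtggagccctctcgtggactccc
Scg2: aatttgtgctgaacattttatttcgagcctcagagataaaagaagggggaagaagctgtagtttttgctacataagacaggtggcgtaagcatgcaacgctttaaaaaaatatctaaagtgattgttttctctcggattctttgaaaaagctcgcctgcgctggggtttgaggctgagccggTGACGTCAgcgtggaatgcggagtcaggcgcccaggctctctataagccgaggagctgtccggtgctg

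Gene counts ranged from 5029996 to 6450140 per library, and levels are given as CPM, the counts divided by the size of the library and brought to a common scale by trimmed mean of M-values (TMM). Reads with several alignments made up 6.86 to 9.52% of a library in CK and 11.5 to 13.9% in CKp25 at 6 weeks, which did not overlap. Among the 2-week libraries such reads made up 7.15% in CK_2wk_4520 and 6.81% in CKp25_2wk_4518, against 12.2 to 14.3% in the other 4, and this pair had a chi-square per gene of 5.58 to 5.89 and 8.29 to 9.07 against the libraries of their own group, which differed from each other by 1.46 and 2.25. Without both of them the same 4 genes were lower at 2 weeks, with log2 fold changes of -0.51 for Bdnf, -0.33 for Ntrk3, -0.83 for Nrn1 and -0.46 for Vgf (adjusted p = 0.0237, 0.0351, 0.00012 and 0.00386). Markers of cell types moved with genotype. The summed level of 14 pan-neuronal markers was 6514 to 6728 CPM in CK and 5094 to 5487 CPM in CKp25 at 2 weeks, and 6288 to 6890 CPM against 4252 to 5279 CPM at 6 weeks. That of 10 astrocyte markers was 5462 to 5973 CPM against 7464 to 7904 CPM at 2 weeks, and 5614 to 6241 CPM against 10047 to 12568 CPM at 6 weeks, and that of 10 microglia markers 249 to 268 CPM against 936 to 1258 CPM, and 232 to 264 CPM against 1158 to 1575 CPM. Hippocampal excitatory markers were also lower (1459 to 1553 CPM against 1050 to 1165 CPM, and 1333 to 1494 CPM against 726 to 935 CPM), and no marker was at 0 in every library of a group. At 6 weeks oligodendrocyte sums were 2807 to 3550 CPM in CK and 4126 to 5031 CPM in CKp25, vascular and fibroblast sums 260 to 301 CPM against 388 to 480 CPM, and inhibitory neuron sums 744 to 814 CPM against 824 to 978 CPM, higher in CKp25 where the pan-neuronal sum was lower. At 2 weeks the inhibitory sums were 742 to 815 CPM against 658 to 722 CPM, and the oligodendrocyte and the vascular sums overlapped between genotypes. In whole tissue, fewer cells of a type and less RNA per cell cannot be told apart.

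In CKp25 at 2 weeks, 4 of the 7 genes were lower than in CK (Bdnf, Ntrk3, Nrn1 and Vgf), none was higher, and Ntf3, Ntrk2 and Scg2 were not called. At 6 weeks the same 4 genes were lower and Ntrk2 was higher. A gene was called at an adjusted p under 0.05 (edgeR quasi-likelihood test, 2-sided, Benjamini-Hochberg over the 14457 genes). By the same rule 7.99% of all genes tested were lower and 11.6% higher at 2 weeks, and 15.2% were lower and 18.1% higher at 6 weeks. The number lower at 2 weeks (1155 genes) was 476 without CKp25_2wk_4894, 621 without CK_2wk_4893 and 646 without CK_2wk_4891. At 2 weeks no gene of the 7 was higher at an unadjusted p under 0.05 either, nor by DESeq2 or limma-voom. The median log2 fold change of the 7 genes was -0.35 at 2 weeks and -0.28 at 6 weeks, beside -0.01 and 0.00 over all genes tested.

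**Figure D1:**
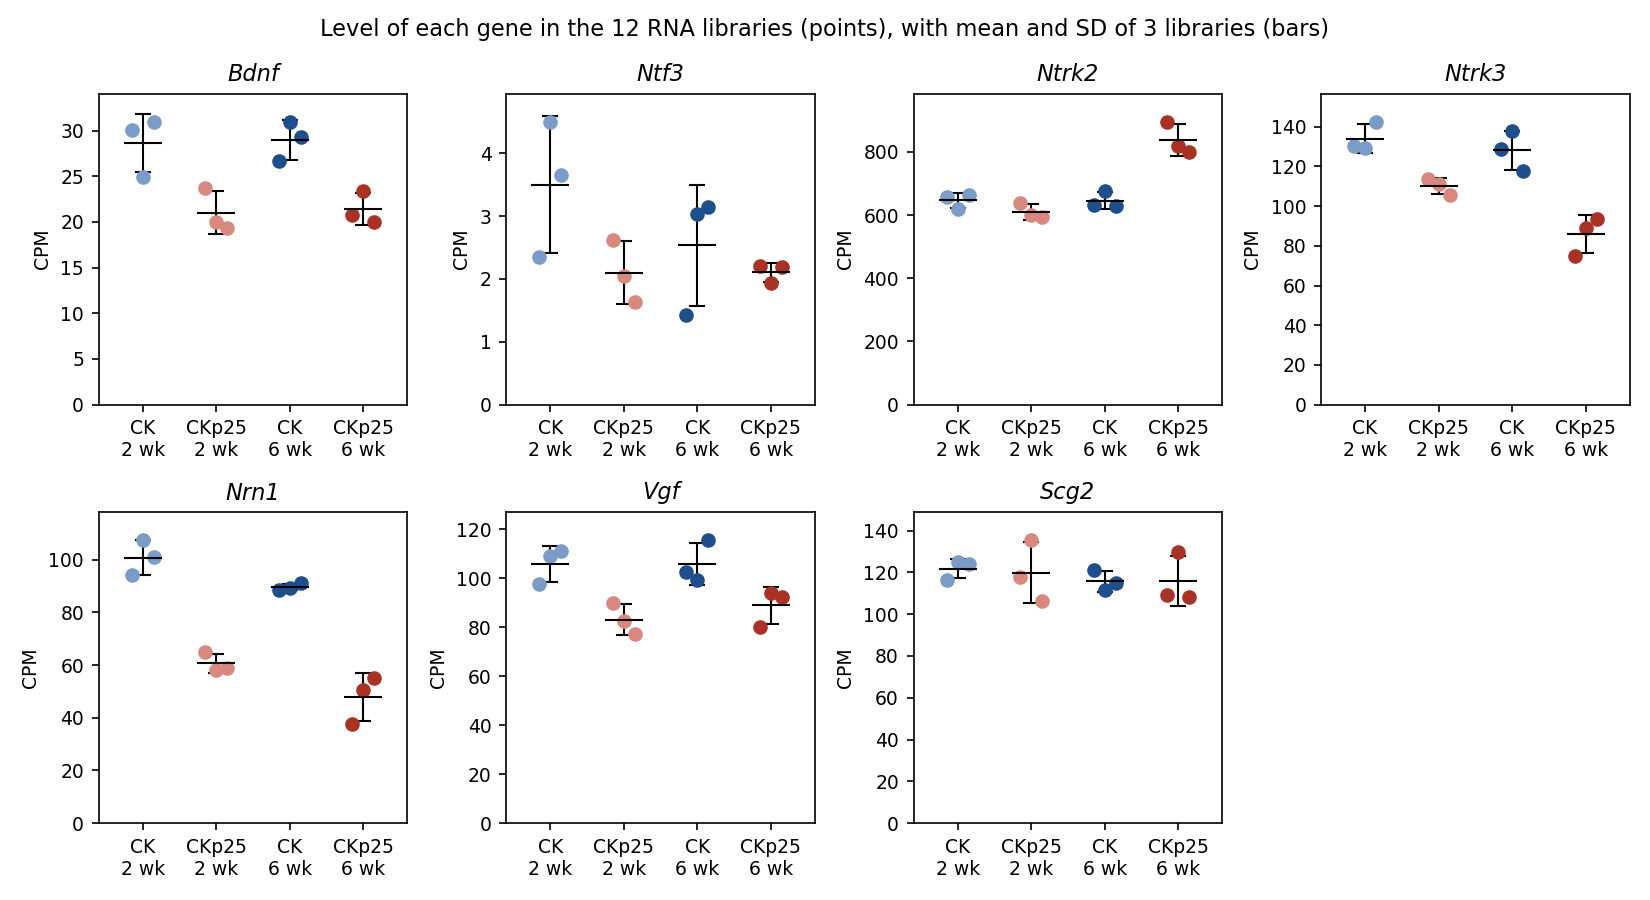
TMM-scaled CPM (vertical axes, from 0) of each of the 7 genes in the 12 libraries (points), by group, with the mean and SD of 3 libraries (bars). The 3 CKp25 libraries lie below the 3 CK libraries at both times for Bdnf, Ntrk3, Nrn1 and Vgf, and above them at 6 weeks only for Ntrk2. The share of all genes tested that separate in this way was not counted, so the separation is a description only.

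Of the ligands, Bdnf was lower in CKp25 at both times. At 2 weeks it stood at 30.0, 24.96 and 30.9 CPM in the CK libraries and at 23.8, 20.03 and 19.3 CPM in the CKp25 libraries. At 6 weeks the values were 26.6, 31.0 and 29.3 CPM in CK and 20.8, 23.3 and 20.005 CPM in CKp25. The groups did not overlap at either time, and the 2 CK groups lay in the same range. How many of all genes tested separate in this way was not counted, here or for the genes below. Bdnf fell by 26.4% at 2 weeks (log2 fold change -0.44 ± 0.12, SE; adjusted p = 0.0144) and fell by 26.0% at 6 weeks (-0.44 ± 0.12; adjusted p = 0.0102). These levels rest on 104 to 179 counts per library. The call at 2 weeks was lost without CK_2wk_4520 (-0.41, adjusted p = 0.0506) or CK_2wk_4893 (-0.39, adjusted p = 0.0675), and without CKp25_2wk_4890 (-0.41, adjusted p = 0.0505) or CKp25_2wk_4894 (-0.37, adjusted p = 0.0860). The call at 6 weeks was lost with the share of reads with several alignments as a covariate (-0.30, adjusted p = 0.144).

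Ntf3, the ligand of TrkC, was near the lower limit of what could be compared, at 7 to 22 counts per library. It stood at 2.35, 4.50 and 3.66 CPM in CK and at 2.62, 2.04 and 1.63 CPM in CKp25 at 2 weeks, and at 1.42, 3.03 and 3.14 CPM against 2.20, 1.93 and 2.18 CPM at 6 weeks. The groups overlapped at both times. Its log2 fold change was -0.70 at 2 weeks (95% interval -1.42 to 0.02; adjusted p = 0.170) and -0.28 at 6 weeks (-1.05 to 0.49; adjusted p = 0.601), so that at this depth a change of the size seen for Bdnf was not detectable.

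The receptors went opposite ways at 6 weeks. Ntrk2 stood at 657, 620 and 663 CPM in CK and at 637, 600 and 593 CPM in CKp25 at 2 weeks, where the groups overlapped (log2 fold change -0.08, 95% interval -0.24 to 0.07; adjusted p = 0.481). At 6 weeks it stood at 632, 676 and 627 CPM in CK and at 895, 819 and 799 CPM in CKp25. All 3 CKp25 libraries were then above every CK library of either time. Ntrk2 was 29.9% higher in CKp25 at 6 weeks (0.38 ± 0.07; adjusted p = 0.000749), and 37.3% higher in CKp25 at 6 weeks than in CKp25 at 2 weeks (0.46 ± 0.07; adjusted p = 0.00079). The counts do not separate full-length from truncated TrkB.

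Ntrk3 was lower in CKp25 at both times. It stood at 130, 129 and 142 CPM in CK and at 114, 111 and 106 CPM in CKp25 at 2 weeks. At 6 weeks the values were 129, 138 and 118 CPM in CK and 75.0, 89.1 and 93.7 CPM in CKp25, and the groups did not overlap at either time. Ntrk3 fell by 17.8% at 2 weeks (-0.28 ± 0.08; adjusted p = 0.0249) and fell by 32.8% at 6 weeks (-0.57 ± 0.09; adjusted p = 7.94e-05). The call at 2 weeks was lost without CK_2wk_4893 (-0.24, adjusted p = 0.109), CKp25_2wk_4890 (-0.29, adjusted p = 0.0552) or CKp25_2wk_4894 (-0.25, adjusted p = 0.112). Within each library the ratio of Ntrk2 to Ntrk3 counts was 4.65 to 5.05 in CK and 5.40 to 5.62 in CKp25 at 2 weeks, and 4.90 to 5.33 in CK and 8.53 to 11.9 in CKp25 at 6 weeks. This ratio is free of library scaling but depends on the lengths of both genes, so that it can be compared between groups and not read as a ratio of molecules.

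Of the genes for other secreted or surface proteins, Nrn1 was lower in CKp25 by the widest margin among the called genes of the group. It stood at 94.1, 107 and 101 CPM in CK and at 64.9, 58.2 and 59.0 CPM in CKp25 at 2 weeks. At 6 weeks it stood at 88.7, 89.2 and 91.1 CPM in CK and at 37.6, 50.6 and 55.3 CPM in CKp25. The highest CKp25 library was well below the lowest CK library at each time. Nrn1 fell by 39.6% at 2 weeks (-0.73 ± 0.10; adjusted p = 5.65e-05) and fell by 46.5% at 6 weeks (-0.90 ± 0.11; adjusted p = 7.27e-06). Of all genes tested, 0.616% had a lower log2 fold change at 2 weeks and 0.706% at 6 weeks. It was called at both times in all 23 alternatives run, the scaling to neuronal markers described below included.

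Vgf stood at 97.6, 109 and 111 CPM in CK and at 89.8, 82.7 and 77.1 CPM in CKp25 at 2 weeks, and at 103, 99.3 and 116 CPM against 80.2, 94.2 and 92.6 CPM at 6 weeks. The groups did not overlap, though the gap between the nearest libraries was narrow. It fell by 21.3% at 2 weeks (-0.35 ± 0.09; adjusted p = 0.00971) and fell by 15.9% at 6 weeks (-0.25 ± 0.09; adjusted p = 0.0375). The call at 2 weeks was lost without CKp25_2wk_4894 (-0.29, adjusted p = 0.0734). At 6 weeks it was lost without CK_6wk_3936 or CK_6wk_4009 and without CKp25_6wk_3937 or CKp25_6wk_4008 (-0.28 to -0.18, adjusted p = 0.0528 to 0.162), with upper-quartile factors (-0.23, adjusted p = 0.0598), with DESeq2 (-0.26, adjusted p = 0.0505) and with the share of reads with several alignments as a covariate (-0.27, adjusted p = 0.0769).

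Scg2 stood at 117, 125 and 124 CPM in CK and at 118, 135 and 107 CPM in CKp25 at 2 weeks, and at 121, 111 and 115 CPM against 109, 130 and 108 CPM at 6 weeks. The CKp25 libraries lay on both sides of the CK libraries at each time. The log2 fold change was -0.02 at 2 weeks (95% interval -0.21 to 0.17; adjusted p = 0.892) and 0.00 at 6 weeks (-0.19 to 0.19; adjusted p = 0.988). These intervals exclude a change of the size fitted for Nrn1 or Bdnf. The ratio of Nrn1 to Scg2 counts within a library was 0.807 to 0.859 in CK and 0.430 to 0.554 in CKp25 at 2 weeks, and 0.732 to 0.800 in CK and 0.344 to 0.510 in CKp25 at 6 weeks.

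**Figure D2:**
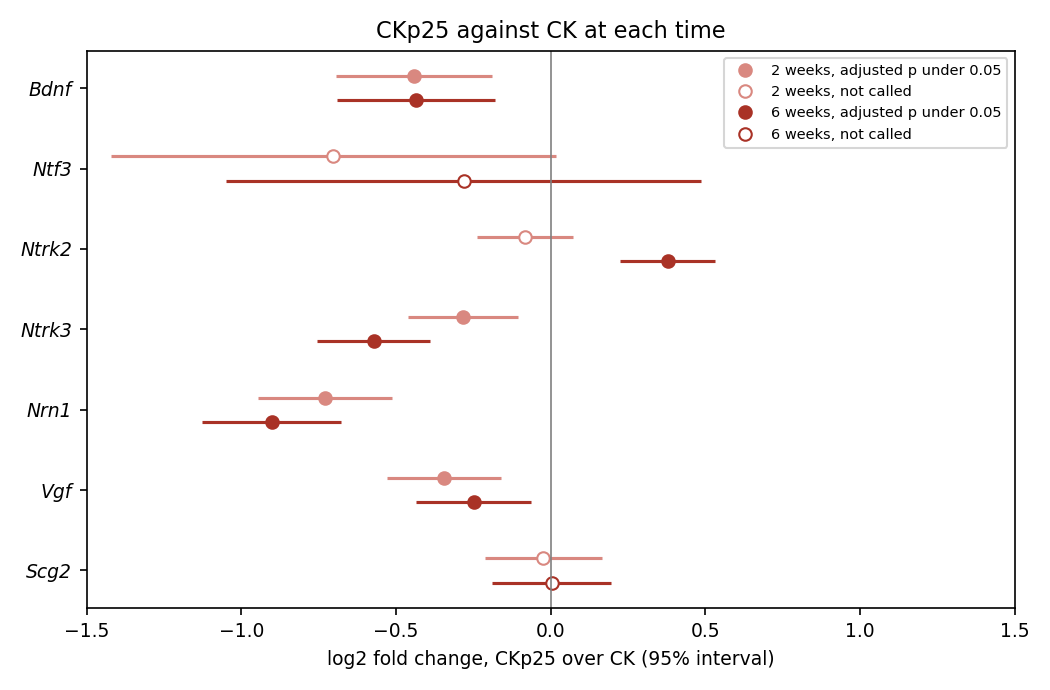
Log2 fold change of CKp25 over CK (horizontal axis) with its 95% interval for each of the 7 genes at 2 weeks (light) and 6 weeks (dark), filled where the adjusted p was under 0.05. Nrn1 lies farthest to the left of the called genes at both times (-0.73 and -0.90), and Ntrk2 at 6 weeks is the only value called to the right of 0 (0.38).

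The genotype effect was compared between the times by testing the difference itself. None of the 7 differences was called, beside 0.374% of all genes tested called higher and 0.18% called lower (edgeR). These shares were 54 and 26 genes, and they moved with the setting: 116 and 96 by DESeq2, 46 and 15 by limma-voom, 210 and 95 with the library number range as a term, and 425 and 268 without the filter on low counts. With 1 library left out they were lowest without CKp25_2wk_4894 (14 higher) and CK_2wk_4891 (5 lower) and highest without CKp25_6wk_3940 (125 and 79). At an unadjusted p under 0.05 there was 1 higher (Ntrk2) and 1 lower (Ntrk3), and DESeq2 and limma-voom each called 1 higher and 0 lower. Ntrk2 had the nearest value, 0.46 ± 0.10 (SE) higher at 6 weeks than at 2 weeks on the log2 scale (adjusted p = 0.0540). It was called in 9 of 22 alternatives, by DESeq2 at an adjusted p of 0.000309, by limma-voom at 0.0365 and with the library number range as a term at 0.0261, and its adjusted p ranged from 0.000309 to 0.144. For Ntrk3 the difference was -0.29 ± 0.12 (adjusted p = 0.276), and for Bdnf 0.01 ± 0.17 (adjusted p = 0.993). With 3 libraries a group, a difference for Bdnf between -0.35 and 0.37 lay within its 95% interval.

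Between the times within CKp25, Ntrk2 was higher and Ntrk3 was lower at 6 weeks, beside 6.12% of all genes tested called higher and 5.53% called lower. These 885 and 800 genes were 431 and 408 without CKp25_6wk_3937 and 467 and 507 without CKp25_2wk_4894, and 524 were lower without CKp25_6wk_4008 and 472 with the library number range as a term. Ntrk3 fell by 21.9% (-0.36 ± 0.09; adjusted p = 0.0125), a call that was lost without CKp25_6wk_3937 (-0.27, adjusted p = 0.0680) and with the library number range as a term (-0.36, adjusted p = 0.0545). Nrn1 was at the threshold (-0.34 ± 0.11; adjusted p = 0.0501) and was called in 10 of 22 alternatives. Within CK none of the 7 genes differed between the times by edgeR, at an adjusted or an unadjusted p under 0.05, nor by DESeq2 or limma-voom. Over all genes 0% were called higher and 0% lower there by edgeR (560 at an unadjusted p under 0.05), none by DESeq2 or limma-voom, 66 higher and 64 lower without the filter on low counts, 3 lower with the library number range as a term, and 1 higher and 25 lower without both CK_2wk_4520 and CKp25_2wk_4518.

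Nrn1, Ntrk3, Bdnf and Vgf were lower in the groups whose neuronal marker sums were lower. The library CKp25_6wk_3937 had the lowest pan-neuronal sum (4252 CPM), the lowest Nrn1 (37.6 CPM) and Ntrk3 (75.0 CPM), and the highest Ntrk2 (895 CPM). Its astrocyte (12568 CPM), microglia (1575 CPM), oligodendrocyte (5031 CPM) and vascular and fibroblast (480 CPM) sums were each the highest of all libraries. At 2 weeks the astrocyte sums were 5462 to 5973 CPM in CK and 7464 to 7904 CPM in CKp25, where Ntrk2 was not called (log2 fold change -0.08). The lowest Bdnf (19.3 CPM) and the lowest Vgf (77.1 CPM) were in CKp25_2wk_4894, with a pan-neuronal sum of 5094 CPM. CK_6wk_4009 had the lowest pan-neuronal sum of the CK libraries (6288 CPM), the lowest Ntrk3 of its group (118 CPM) and the highest Vgf of all (116 CPM). Without CKp25_6wk_3937, Ntrk2 and Ntrk3 were still called at 6 weeks. Across the 12 libraries the genes most like Ntrk2 in log2 CPM were Slc1a2 (Pearson r = 0.98), the main astrocyte glutamate transporter, Id4 (0.97) and Gprc5b (0.96). Those most like Nrn1 were Scube1 (0.99), Fbxl16 (0.99) and Chn1 (0.98), and those most like Ntrk3 were Lmo7 (0.99), Clstn2 (0.99) and Tspan13 (0.99). Those most like Bdnf were Tppp, Evi5l and Elovl6 (0.96 each), and Gpm6a (0.95) was among the 3 most like Vgf. Ntf3 and Scg2 had no gene so close, with mt-Nd1 and Mrpl44 at 0.87 in turn. These are descriptions over 12 libraries that share the 4 groups, and the part of cell composition in them was not tested.

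**Figure D3:**
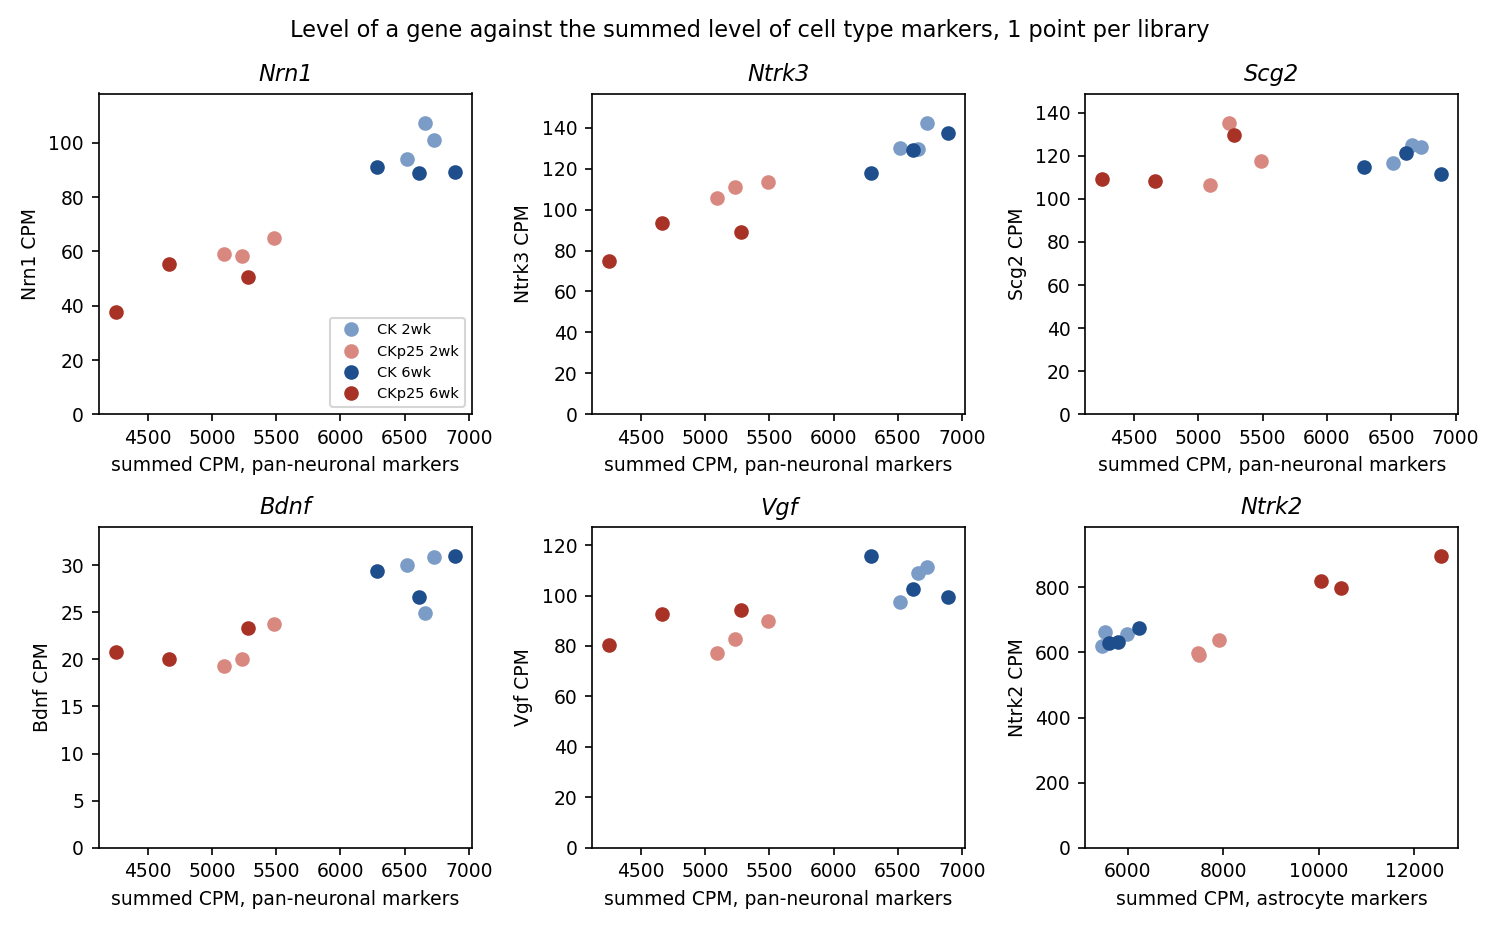
TMM-scaled CPM of 6 of the genes (vertical axes, from 0) against the summed CPM of pan-neuronal markers or, for Ntrk2, astrocyte markers (horizontal axes, which do not start at 0), with 1 point per library coloured by group. The CKp25 libraries are lower on both axes for Nrn1, Ntrk3, Bdnf and Vgf, while Scg2 spans 107 to 135 CPM over the range of the neuronal markers.

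As an alternative scale, the counts were set against the summed counts of the 14 pan-neuronal markers in place of the whole library. This scale does not follow excitatory neurons alone. Scaled to all genes, hippocampal excitatory markers had medians of -0.36 at 2 weeks and -0.83 at 6 weeks, beside -0.73 and -0.90 for Nrn1. Inhibitory markers had medians of -0.13 and 0.20. The part of excitatory neurons in the level of Nrn1 was not tested. On the pan-neuronal scale Nrn1 was still lower at 2 weeks (-0.40, adjusted p = 0.00598) and at 6 weeks (-0.43, adjusted p = 0.00205). Bdnf (-0.12, adjusted p = 0.470, and 0.04, adjusted p = 0.785) and Ntrk3 (0.05, adjusted p = 0.632, and -0.09, adjusted p = 0.300) were not called. Vgf was not called at 2 weeks (-0.02, adjusted p = 0.900) and was higher at 6 weeks (0.23, adjusted p = 0.0420). Scg2 was higher at both times (0.31, adjusted p = 0.0136, and 0.48, adjusted p = 0.000339), as was Ntrk2 (0.25, adjusted p = 0.0411, and 0.87, adjusted p = 1.64e-06). This scale moved all genes up alike: the median log2 fold change over all genes tested was 0.32 at 2 weeks and 0.48 at 6 weeks, and a change of direction on it is part of that shift. Of all genes tested 36.7% were higher and 0.159% lower on it at 2 weeks, and 63.5% were higher and 1.16% lower at 6 weeks. Beside these shares, 2 of the 7 genes were higher and 1 lower at 2 weeks, and 3 were higher and 1 lower at 6 weeks, so that the genes called higher are no result about this group.

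**Figure D4:**
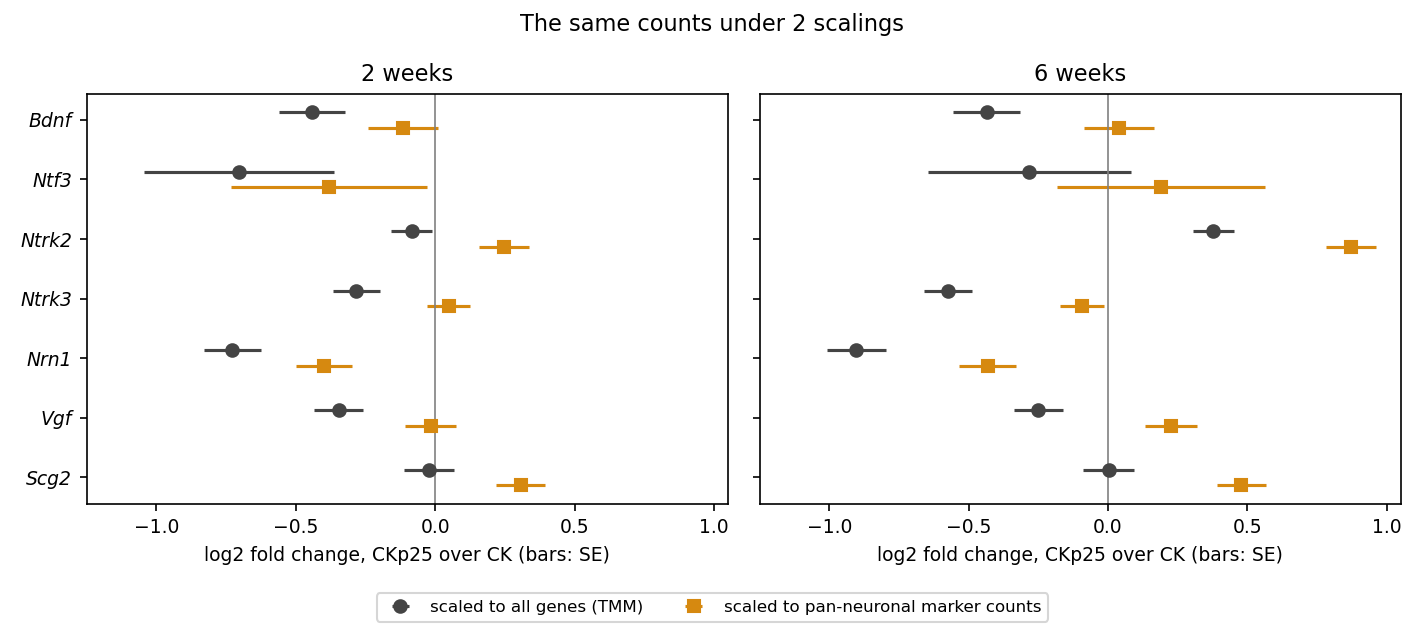
Log2 fold change of CKp25 over CK with its SE (horizontal axes) for the 7 genes at 2 and 6 weeks, with counts scaled to all genes (circles) or to the summed pan-neuronal marker counts (squares). The second scale lies to the right for each gene, as it does for the median of all genes (0.32 and 0.48); Nrn1 stays below 0 (-0.40 and -0.43), while Scg2 moves from -0.02 and 0.00 to 0.31 and 0.48.

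Of 8 other neurotrophin ligands and receptors, 5 were tested. Sort1, the sortilin that binds proneurotrophins and sorts BDNF, was lower at both times, at 684 ± 25.04 CPM in CK and 553 ± 46.9 in CKp25 at 2 weeks and at 679 ± 45.1 against 532 ± 38.1 at 6 weeks (SD, n = 3; adjusted p = 0.0152 and 0.00367). At 2 weeks this call was lost without CK_2wk_4893 or CKp25_2wk_4894. Sorcs3, another sortilin-family receptor, was lower at 6 weeks (53.4 ± 3.46 against 38.7 ± 3.11 CPM; adjusted p = 0.00121). The median over the 5 genes was -0.14 at 2 weeks and 0.01 at 6 weeks on the log2 scale.

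Of 33 adaptors and kinases of Trk signalling, 5 were higher and 11 lower at 6 weeks (median -0.09), and 2 were higher and 4 lower at 2 weeks (median -0.09). The shares higher (15.2% and 6.06%) were below those of all genes tested (18.1% and 11.6%), and the shares lower were 33.3% and 12.1% beside 15.2% and 7.99%. The count higher at 6 weeks was 3 without CK_6wk_4009, with DESeq2 or without the filter on low counts. At 2 weeks the count lower was 2 without CK_2wk_4891, CK_2wk_4893 or CKp25_2wk_4894 and 1 without CKp25_2wk_4890, and the count higher was 0 without CK_2wk_4891 and 1 without CK_2wk_4893 or CKp25_2wk_4518. Shc1, an adaptor that binds activated Trk receptors, went from 11.7 ± 1.495 CPM in CK to 23.8 ± 1.41 in CKp25 at 6 weeks (adjusted p = 3.07e-05). Lower at 6 weeks were Map2k1, a MAP kinase kinase (216 ± 10.9 against 147 ± 16.4 CPM), and Crtc1, a coactivator of CREB (166 ± 32.1 against 97.9 ± 8.53 CPM). Their log2 fold changes were -0.55 and -0.75.

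Of 14 enzymes and regulators of precursor processing, 10 were tested, and at 6 weeks 3 were higher and 1 lower (median 0.13). These were 30% and 10%, beside 18.1% and 15.2% of all genes tested. Cpe, the carboxypeptidase of dense core vesicles, stood at 1154 ± 82.4 CPM in CK and 1584 ± 49.4 in CKp25 (log2 fold change 0.46; adjusted p = 0.00046). Pcsk6, a proprotein convertase, stood at 22.2 ± 1.45 against 42.2 ± 6.39 CPM (0.92), and Pcsk2, the convertase of neuroendocrine granules, at 297 ± 6.70 against 210 ± 31.7 CPM (-0.50). At 2 weeks 1 of the 10 was higher and 1 lower (Pcsk2), each 10%, near the 11.6% and 7.99% of all genes tested. The latter call was lost without CK_2wk_4891 or CKp25_2wk_4894, 2 were higher without CKp25_2wk_4518, and at 6 weeks 2 were lower without CKp25_6wk_3940.

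Scg2 and Vgf belong to the granins. The list nearest to them also holds dense core vesicle proteins that are not granins, so that it does not measure the granin family. Of these 13 genes, 9 (69.2%) were lower and 1 (7.69%) higher at 6 weeks (edgeR, median -0.31). At 2 weeks 6 (46.2%) were lower and none higher (median -0.27). Of all genes tested, 15.2% were lower and 18.1% higher at 6 weeks, and 7.99% were lower at 2 weeks. Chga, a granin named here although it was not called, had log2 fold changes of 0.03 at 2 weeks and -0.15 at 6 weeks (edgeR adjusted p = 0.869 and 0.208). Chgb, a granin of dense core vesicles, stood at 309 ± 22.5 CPM in CK and 220 ± 25.5 in CKp25 at 6 weeks (-0.49; adjusted p = 0.000323), and Ptprn, a vesicle membrane protein, at 326 ± 6.72 against 239 ± 26.7 CPM (-0.45). Ica1, which acts in vesicle formation, stood at 51.2 ± 4.196 against 37.1 ± 3.74 CPM (-0.46). Scg3, a granin that binds cholesterol in vesicle membranes, was higher (167 ± 4.23 against 244 ± 26.5 CPM; 0.54; adjusted p = 3.42e-05). The count lower at 2 weeks was 3 without CK_2wk_4891, 2 without CK_2wk_4893, 3 without CKp25_2wk_4894, and 10, with 1 higher, without CKp25_6wk_3937, which shares the estimate of the spread.

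Of 18 activity-induced transcription factors and Arc, 9 (50%) were lower and none higher at 6 weeks (median -0.43). At 2 weeks 3 (16.7%) were lower and 1 (5.56%) higher (median -0.19). Of all genes tested, 15.2% were lower at 6 weeks, and 7.99% were lower and 11.6% higher at 2 weeks. Arc, a synaptic immediate-early protein, stood at 189 ± 23.3 CPM in CK and 83.6 ± 21.5 in CKp25 at 6 weeks (-1.17; adjusted p = 0.00065), Nr4a3, a nuclear receptor, at 61.6 ± 13.6 against 35.02 ± 5.68 CPM (-0.80), and Egr4 at 12.3 ± 3.79 against 5.54 ± 1.18 CPM (-1.13). Npas4, a neuronal factor that binds Bdnf promoters, stood at 16.8 ± 8.92 against 7.51 ± 0.459 CPM (-1.17; adjusted p = 0.00627), a call lost without CK_6wk_4009 (-0.65, adjusted p = 0.0594). The count lower at 6 weeks was 5 without CKp25_6wk_4008. At 2 weeks it was 1 without CK_2wk_4520, CK_2wk_4891 or CK_2wk_4893, 0 without CKp25_2wk_4890 and 6 without the filter on low counts.

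Of 18 other secreted or surface proteins regulated by activity, 16 were tested. At 6 weeks 6 (37.5%) were lower and none higher (median -0.26), where 15.2% of all genes tested were lower. At 2 weeks 5 (31.2%) were lower and 1 (6.25%) higher (median -0.22), beside 7.99% and 11.6% of all genes tested. Nptx1, a pentraxin that gathers AMPA receptors at synapses, stood at 354 ± 57.2 CPM in CK and 173 ± 33.9 in CKp25 at 6 weeks (-1.03; adjusted p = 1.05e-05), and its receptor Nptxr at 39.1 ± 6.45 against 23.4 ± 2.87 CPM (-0.73). Olfm1, a secreted glycoprotein of neurons, was lower at both times, at 523 ± 14.9 against 384 ± 27.3 CPM and 516 ± 48.3 against 274 ± 39.5 CPM. The count lower at 2 weeks was 3 without CKp25_2wk_4894, and none was higher at 2 weeks without that library or CK_2wk_4893. At 6 weeks 1 was higher without CK_6wk_4009 or CKp25_2wk_4518.

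**Figure D5:**
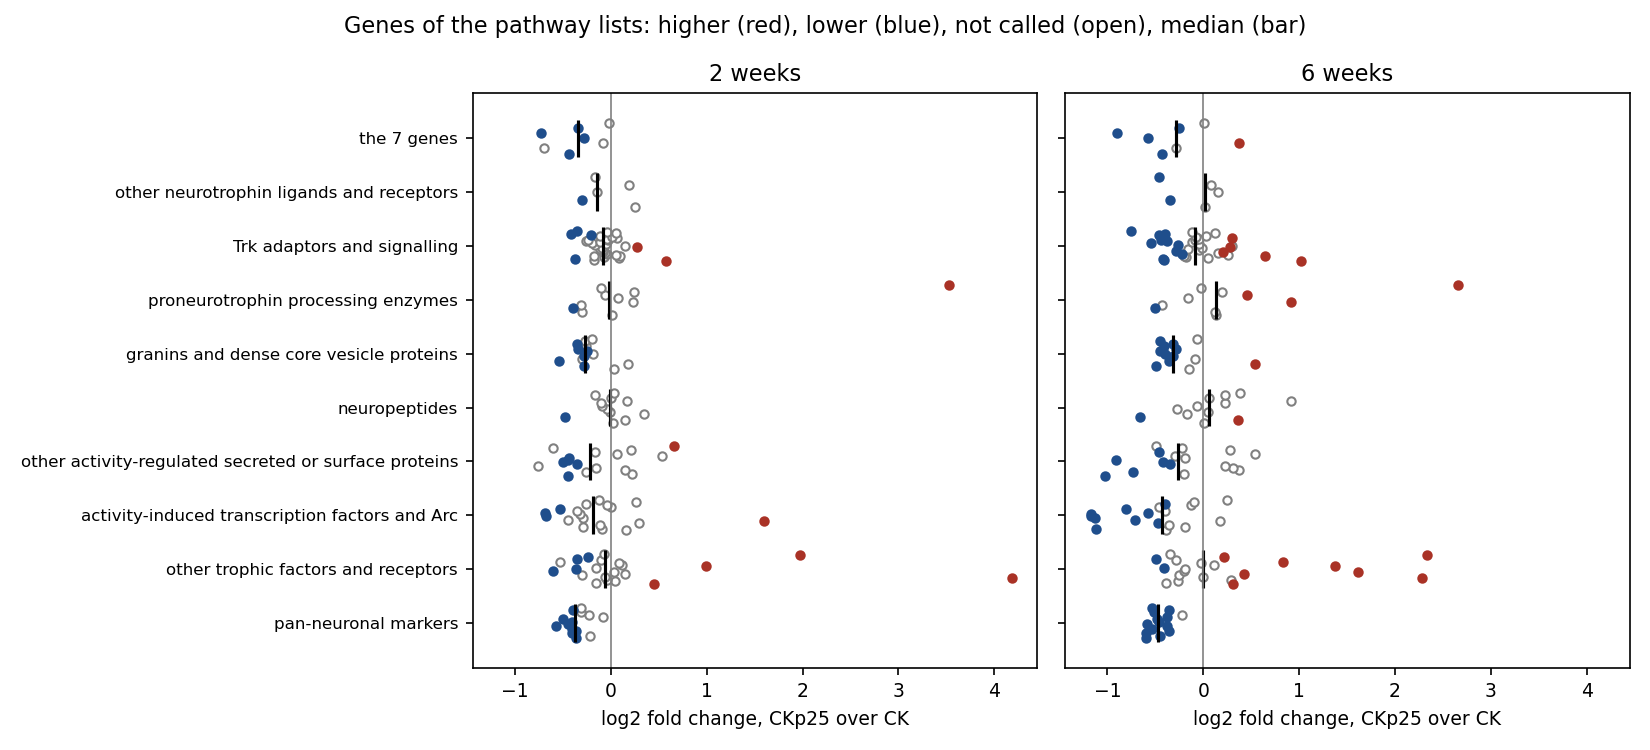
Log2 fold change of CKp25 over CK (horizontal axes) of each tested gene of the 7-gene group, 8 related lists and the pan-neuronal markers (rows) at 2 and 6 weeks, red where called higher, blue where called lower and open where not called, with a bar at each median. The medians of the granins and dense core vesicle proteins (-0.31), the activity-induced factors (-0.43) and the pan-neuronal markers (-0.47) lie below 0 at 6 weeks.

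The granins and dense core vesicle proteins, the activity-induced factors and the other activity-regulated proteins had medians below 0 at both times, as had the pan-neuronal markers. At 6 weeks the medians of the processing enzymes (0.13), the neuropeptides (0.06) and the other neurotrophin ligands and receptors (0.01) were above 0. Those of the Trk adaptors and kinases (-0.09) and the other trophic factors and receptors (0.00) lay between. Of the pan-neuronal markers, 9 of 14 were lower at 2 weeks and 13 of 14 at 6 weeks (medians -0.38 and -0.47). None of the 14 was higher at either time by edgeR or in the 22 alternatives run for the lists. The scaling to neuronal markers was not among these alternatives. Beside the marker counts given here, 7.99% of all genes tested were lower and 11.6% higher at 2 weeks. At 6 weeks these shares were 15.2% and 18.1%. Of 11 hippocampal excitatory markers, 5 were lower at 2 weeks and 9 at 6 weeks (medians -0.36 and -0.83). The count at 2 weeks was 3 to 7 in the 22 alternatives run for the lists. Of 8 inhibitory neuron markers, 1 (12.5%) was lower at 2 weeks and 2 (25%) were higher at 6 weeks (medians -0.13 and 0.20). Over the same alternatives these counts were 0 to 1 and 0 to 3. The part of neurons in the lower values of Bdnf, Ntrk3, Nrn1, Vgf and the related lists was not tested beyond the scaling above. Astrocyte markers, 5 of 10 higher at 2 weeks and 9 of 10 at 6 weeks (medians 0.27 and 0.77), moved beside Ntrk2 at 6 weeks. So did oligodendrocyte markers (0 of 8 higher at 2 weeks and 7 of 8 at 6 weeks) and vascular and fibroblast markers (0 of 10 and 10 of 10). The part of these cells in the level of Ntrk2 was not tested. Choroid plexus sums ranged from 23.2 to 2577 CPM over all libraries and varied widely within each group. They were 23.2 to 1024 CPM in CK and 32.8 to 1238 CPM in CKp25 at 2 weeks. At 6 weeks they were 44.1 to 2577 CPM in CK and 24.0 to 2221 CPM in CKp25. With their level as a covariate the 5 genes called at 6 weeks and the 4 called at 2 weeks were still called.

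The numbers in the library names fall into 2 ranges at each time. At 2 weeks CK_2wk_4520 and CKp25_2wk_4518 form the first and the other 4 libraries the second. At 6 weeks CK_6wk_4009 and CKp25_6wk_4008 form the second and the other 4 libraries the first. Nrn1 was lower in CKp25 within each, with a log2 ratio of mean CPM of -0.54 and -0.83 at 2 weeks and of -1.01 and -0.72 at 6 weeks. Bdnf (-0.34, -0.51, -0.38 and -0.55), Ntrk3 (-0.19, -0.33, -0.70 and -0.33) and Vgf (-0.12, -0.46, -0.21 and -0.32) were lower within each range too. Ntrk2 was higher within both ranges of 6 weeks (0.39 and 0.35). Ntf3 was 0.16 higher in CKp25_2wk_4518 than in CK_2wk_4520 and lower in the others (-1.15, -0.11 and -0.53). Scg2 had a mixed direction (0.02, -0.04, 0.04 and -0.08).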

How the data were processed

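RNA of hippocampus was measured in 12 libraries, 3 for each genotype and time. The authors deposited whole-number read counts per Ensembl gene; the submitters' processing notes name Bowtie, Picard and HTSeq 0.6.1 and the builds NCBIM37 and mm9, with no role or order. The 28 deposited ChIP-seq peak lists, on mm9, were not used here, since the gene tables at hand are of another build. Symbols came from a table of Ensembl identifiers. The 5 rows that name no gene were left out. Counts were filtered (filterByExpr), scaled by TMM and fitted with 4 group means in edgeR 4.0.16 (quasi-likelihood test; limma 3.58.1 and DESeq2 1.42.0 as alternatives; R 4.3.3), with Benjamini-Hochberg adjustment over all genes tested and calls at 0.05. An SE is the log2 fold change divided by the root of the F statistic. Library pairs of a group differed by more than sampling noise (chi-square per gene 1.46 to 9.07).

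The members and all lists were chosen with earlier results of these data known. From each list the 4 called genes with the smallest p at 6 weeks, then at 2 weeks, were named, and for each member the 3 genes of at least 10 CPM with the highest correlation over the 12 libraries; some genes these rules select are not reported here. Gene lengths were not used here, so levels are not compared between genes. Alternatives were other scalings, no filter on low counts, other tools, added terms and leaving out libraries.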

Additional observations from a re-analysis of the deposited data

How the results depend on the processing

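With 3 libraries a group, calls at 2 weeks for Bdnf, Ntrk3 and Vgf were each lost with at least 1 single library left out, while Nrn1 at both times and Ntrk2 at 6 weeks were called in all 23 alternatives. Scaled to pan-neuronal marker counts, which moved the median of all genes to 0.32 and 0.48, 2 genes were called higher (36.7% of all genes) and 1 lower (0.159%) at 2 weeks, and 3 higher (63.5%) and 1 lower (1.16%) at 6 weeks. That shift of all genes turned the direction at 2 weeks of Ntrk2 (0.25), Ntrk3 (0.048) and Scg2 (0.31), and at 6 weeks of Bdnf (0.040), Ntf3 (0.19) and Vgf (0.23). With the share of reads with several alignments as a covariate, 2 genes were called lower at 6 weeks. Scg2, which lay near 0 in the other alternatives, turned at 2 weeks with choroid plexus genes as a covariate (0.0082), and at 6 weeks with DESeq2 (-0.0030), limma-voom (-0.00099), no filter on low counts (-0.0064), the several-alignment covariate (-0.052) and without CK_2wk_4520 and CKp25_2wk_4518 together (-0.0074). Its difference between the times turned with the several-alignment (-0.037) and choroid plexus (-0.0023) covariates, and that of Bdnf with median-ratio factors (-0.00077) and DESeq2 (-0.0037). The cause of these turns was not tested. Leaving out 1 library at a time, Scg2 ranged from -0.12 to 0.061 at 2 weeks, from -0.099 to 0.047 at 6 weeks and from -0.081 to 0.12 in the difference, and Bdnf from -0.082 to 0.097 in the difference. The genes called lower at 2 weeks then numbered 1 to 4. For the difference between the times, 1 gene (Ntrk2) was called higher with upper-quartile factors, pan-neuronal scaling, DESeq2, limma-voom, no filter, the library number range, the several-alignment covariate and the choroid plexus covariate, and 0 to 1 with 1 library left out. Within CKp25, 2 genes were called lower with median-ratio or upper-quartile factors, DESeq2, limma-voom, no filter and either covariate, 0 with pan-neuronal scaling or the library number range, and 0 to 2 with 1 library left out. For the other lists the same alternatives, apart from the neuronal scaling, were added after seeing the data: of 82 calls of named genes 64 were kept in every one, 18 were lost in at least 1, and none changed direction. No paired analysis was possible because the labels give the libraries no numbers shared between groups. The range of the library numbers was fitted as a term in its place.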

Other observations

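Of 26 trophic factors and receptors outside the neurotrophin family 21 were tested (edgeR). At 6 weeks 8 (38.1%) were higher and 2 (9.52%) lower (median 0.00), beside 18.1% and 15.2% of all genes tested. At 2 weeks 4 (19%) were higher and 4 (19%) lower (median -0.06), beside 11.6% and 7.99%. Hgf, hepatocyte growth factor, stood at 3.54 ± 0.648 CPM in CK and 9.19 ± 1.49 in CKp25 at 6 weeks (SD, n = 3; log2 fold change 1.37, adjusted p = 0.000301). Tgfb1, a cytokine that microglia make, stood at 0.793 ± 0.436 against 3.99 ± 0.355 CPM (2.34). Its CK level rests on few counts, below the lowest Ntf3 library in CK at 6 weeks (1.42 CPM). The log2 fold change of Tgfb1 ranged from 1.95 to 2.78 over the alternatives, so that its size is uncertain. Nrg3, a neuregulin of neurons, was lower at both times, at 74.1 ± 3.23 against 57.9 ± 0.807 CPM and 69.8 ± 2.09 against 49.5 ± 7.01 CPM, and Fgf13, an intracellular member of the fibroblast growth factor family, at 6 weeks (75.9 ± 4.82 against 56.8 ± 4.61 CPM). The count lower at 6 weeks was 4 without CKp25_2wk_4518, which shares the estimate of the spread. At 2 weeks it was 2 without CK_2wk_4520. Microglia markers were higher in 10 of 10 cases at both times, and their part in the levels of Hgf and Tgfb1 was not tested.

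Of 16 neuropeptide genes 12 were tested, and 1 was lower at each time and 1 was higher at 6 weeks. The share lower at 2 weeks (8.33%) was near that of all genes tested (7.99%). At 6 weeks 8.33% were lower and 8.33% higher, below the 15.2% and 18.1% of all genes tested. These counts are therefore no result about neuropeptides as a group. Cck, cholecystokinin, stood at 133 ± 11.1 CPM in CK and 95.6 ± 7.08 in CKp25 at 2 weeks, and at 114 ± 3.20 against 72.0 ± 11.4 CPM at 6 weeks (-0.48 and -0.66; adjusted p = 0.00202 and 8.35e-05). Npy, neuropeptide Y, stood at 19.0 ± 0.759 against 24.4 ± 2.99 CPM at 6 weeks (0.37; adjusted p = 0.0424), a call lost in 10 of 22 alternatives, among them leaving out any 1 of the 6-week libraries other than CKp25_6wk_4008 (adjusted p up to 0.180).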
